A study of Mus musculus with 14 samples.

Results

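The cytosolic ribosomal protein genes were taken by name, as every gene of the count tables whose symbol is Rpl or Rps followed by a number with at most 1 of the letters a, x and l, together with Rplp0, Rplp1, Rplp2 and Rpsa. This found 83 of 53278 genes, 51 of the large subunit and 32 of the small subunit. GENCODE annotates 80 of them as protein-coding and 3 (Rpl6l, Rpl32l and Rps4l) as processed pseudogenes. Ribosomal protein genes with other kinds of symbol, such as Rps3a1 and Fau, fall outside the rule and are described separately.

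The measurements are RNA-seq of group 2 innate lymphoid cells (ILC2s), tissue-resident lymphocytes that release IL-5 and IL-13 when epithelial alarmins such as IL-33 reach them. All cells came from whole lungs of female mice and were sorted as live, lineage-, CD90.2+ and CD3-. In the stimulation experiment, B6 ILC2s of different mice gave 4 unstimulated libraries (unstim) and 4 libraries given 20 ng/mL IL-33 for 24 h (stim). How long the unstimulated cells were cultured is not in their labels, and the sources describe them both as cultured without IL-33 and as ex vivo, so IL-33 and culture for 24 h cannot be told apart if they were taken ex vivo. In the Blimp-1 experiment, ILC2s of 3 ControlIL7RaCre mice (WT) and 3 Blimp-1IL7RaCre mice (KO) were all cultured with 20 ng/mL IL-33 and 20 ng/mL IL-25 for 72 h, to which the study's methods, but not the labels, add IL-2. Both genotypes carry the Cre driven from Il7r, which is active in the whole lymphoid lineage and not in ILC2s alone, and in the KO mice it deletes a floxed Prdm1, the gene for the transcriptional repressor Blimp-1.

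A ribosome translates mRNA with a small 40S subunit, which binds the mRNA and reads the codons, and a large 60S subunit, which forms the peptide bond. The ribosomal proteins named here belong to one or the other. Lymphocytes that leave rest make more ribosomes as they grow, a programme in which Myc raises rRNA synthesis and the processing factors of the nucleolus. Ribosomal protein mRNAs are also held back or released at the level of translation through a terminal oligopyrimidine (TOP) tract, a C followed by pyrimidines at the very start of the mRNA, which RNA-seq levels do not report on.

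The start sites of 6 members the results turn on are shown first, to set the tract beside the genes that moved most and least. RefSeq gave start-site windows in GRCm38.p6 for 61 of the 83 members. Each sequence below runs 5′ to 3′ on the gene's strand from 10 bases before the annotated start base through the first 20 bases of the transcript, and capitals mark an unbroken run of C and T that begins with a C at the start base.
Rps6, chr4:86857348-86857377, minus strand: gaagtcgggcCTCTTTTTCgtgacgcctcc
Rpl35, chr2:39005112-39005141, minus strand: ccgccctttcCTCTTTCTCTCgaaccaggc
Rps27, chr3:90213629-90213658, minus strand: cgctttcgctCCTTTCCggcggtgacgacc
Rps27l, chr9:66946076-66946105, plus strand: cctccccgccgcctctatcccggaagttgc
Rpl13a, chr7:45128726-45128755, minus strand: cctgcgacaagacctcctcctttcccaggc
Rpl39l, chr16:10170218-10170247, plus strand: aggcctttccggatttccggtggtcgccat

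A run of at least 5 pyrimidines beginning with C at the annotated start stood at 14 of the 61 members (23.0%) against 813 of 27025 genes of the table with a window (3.01%). It stood at 8 of 38 large-subunit members and at 6 of 23 small-subunit members. Rps6, Rpl35 and Rps27 hold it, and Rps27l, Rpl13a and Rpl39l do not at the start base given by RefSeq, although Rpl13a has a pyrimidine stretch a few bases further on. In the 300 bases around the start (250 before it and 50 from it), the letters CCGGAAG on either strand, the core read by ETS family factors, stood in 25 of the 61 members (41.0%) and in 9.93% of all windows, and the letters AAGATGGC, the core read by YY1, in 5 members (8.20%) and in 3.19% of all windows. Of 69 mitochondrial ribosomal protein genes with a window, 26 (37.7%) held CCGGAAG and none held the pyrimidine run. A match is a description of letters and not of a bound factor.

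The 14 libraries differed in depth, and a single library of each experiment stood apart. Totals ranged from 21939818 to 32791051 counts in unstim, from 10470125 to 32849428 in stim, from 13570188 to 76202537 in WT and from 60715362 to 76448945 in KO, and stim replicate 3 and WT replicate 2 were the lowest of their groups. WT replicate 2 had 76.8% of its counts on 7 rRNA-like loci, against 0.262% to 0.941% in the other WT and KO libraries, and stim replicate 3 had 4.12%, against 0.258% to 0.572% in the other libraries of its experiment. Results are therefore given with and without these 2 libraries. The deleted gene itself fell in KO (Prdm1, log2 fold change -2.68, adjusted p = 0.00441, edgeR), and all 10 ILC2 markers had counts in every group. T cell markers summed to 53.8 to 79.0 TPM in unstim and 12.1 to 25.5 TPM in stim, mast cell or basophil markers to 16.7 to 36.6 TPM and 0 to 0.731 TPM, epithelial or stromal markers to 214 to 362 TPM and 81.3 to 144 TPM, and myeloid markers to 215 to 456 TPM and 74.5 to 210.2 TPM. The part of these other cells in the results was not tested, and in bulk RNA fewer cells of a type and less RNA per cell cannot be told apart.

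Levels of different genes are compared per length, as TPM, a length-corrected level scaled to the same total in every library. In unstimulated ILC2s, Rplp1, an acidic protein of the stalk that recruits translation factors to the 60S subunit, had the highest level of the members at 7013 ± 737 TPM (SD, n = 4). It was followed by Rpl8 at 3981 ± 194, Rplp0, the base of the same stalk, at 3597 ± 158, Rps15 at 3467 ± 142 and Rpl4 at 3223 ± 73.0 TPM, of which Rplp0 and Rps15 did not differ beyond their SDs. The lowest with a count were Rpl13a at 70.8 ± 4.37, the pseudogene Rps4l, Rpl32l at 5.14 ± 1.06, Rpl39l at 1.71 ± 0.719 and Rpl3l at 0.0397 ± 0.0468 TPM. Many members share sequence with other genes. Of the 75-base stretches in a member's transcripts (75 bases is the read length), a median of 30.9% also occur in another annotated gene, over the 80 members with a value. These other genes include named pseudogenes and genes whose exons overlap the member. The share reached 89.2% for Rpl35, whose main partner was the overlapping gene Wdr38. Exons of Arpc5l or Wdr38 hold 66.2% of the exon bases of Rpl35. The handling of reads with several matches is not stated in the sources used here. The 24 members with 50% or more of their stretches shared had a median of 593 TPM, the 23 members with 25% to 50% a median of 786 TPM and the 33 members under 25% a median of 509 TPM.

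In stimulated against unstimulated ILC2s the members moved upward together, by a small amount, in 3 of the 4 stimulated libraries. The 83 genes took 4.08%, 3.72%, 3.85% and 3.53% of the counts in unstim replicates 1 to 4 and 4.42%, 4.56%, 3.06% and 4.92% in stim replicates 1 to 4. Stim replicates 1, 2 and 4 lay above all unstimulated libraries and stim replicate 3 lay below all of them. The means were 3.80% ± 0.231 (SD, n = 4) and 4.24% ± 0.816 (SD, n = 4), and without stim replicate 3 the stimulated mean was 4.63% ± 0.260 (SD, n = 3), 1.22 times the unstimulated mean. Taking the 7 rRNA-like loci out of the total left stim replicate 3 at 3.19%, still the lowest of the 8 libraries. As a share of TPM outside these loci, a level corrected for gene length, the means were 7.81% in both groups with all libraries. Without stim replicate 3 the stimulated mean on that scale was 8.59%, 1.1 times the unstimulated mean.

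**Figure D1:**
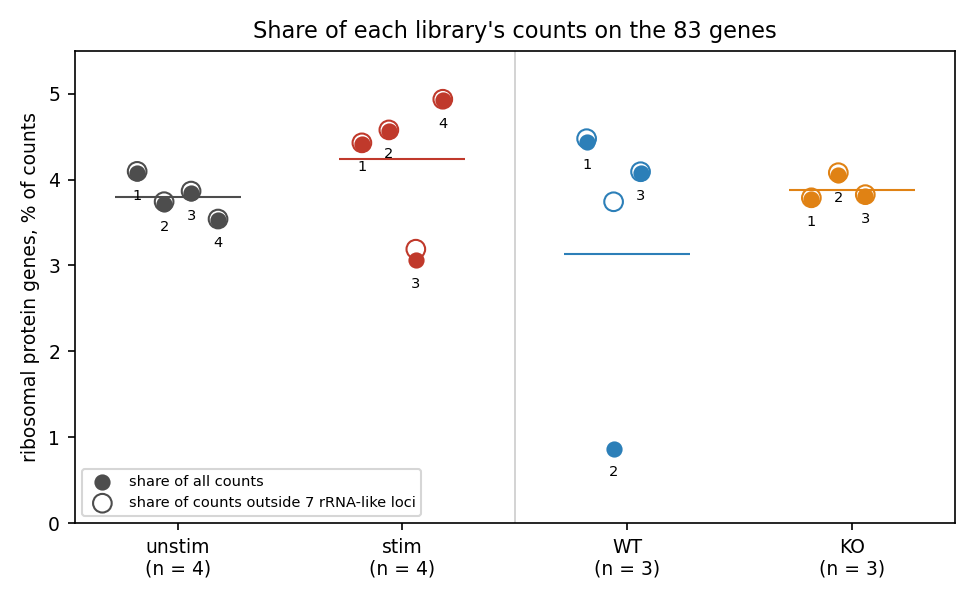
Share of counts on the 83 ribosomal protein genes in each of the 14 libraries, in percent, with the replicate number under each point; filled points use all counts, open circles leave out 7 rRNA-like loci, and lines are group means of the filled points. Stim replicate 3 (3.06%) and WT replicate 2 (0.869%) are the lowest of their groups, and leaving out the loci brings WT replicate 2 to 3.74%.

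Gene by gene, 81 of the 83 members had enough counts to be tested, and members passed the test in 1 direction only. With all 8 libraries, 19 of the 81 were called higher and 0 lower with 0.05 as the limit of the adjusted p (edgeR quasi-likelihood test, Benjamini-Hochberg over all genes tested), where 16.2% of all 15466 genes tested were called higher and 16.1% lower. At an unadjusted p below 0.05 there were 35 members (43.9% of all genes). DESeq2 called 33 of 82 members higher and 0 lower, where 18.7% of the 17663 genes with an adjusted p were called higher and 18.1% lower. The share of members called higher was thus 23.5% by edgeR and 40.2% by DESeq2, each above that of all genes in the same fit. This excess was not kept in every alternative. It was lost with the replicate number as a block (11.1% of members beside 11.7% of all genes), on log2(TPM + 1) (2.47% beside 6.80%), and without stim replicate 1 (12.3% beside 12.7%), stim replicate 2 (11.1% beside 12%), stim replicate 4 (11.1% beside 12.4%) or unstim replicate 3 (9.88% beside 11.8%). The median log2 fold change of the members was 0.37, beside 0.06 over all genes tested, and 79 of 81 were above 0. Without stim replicate 3, 74 of the 81 were called higher and 0 lower, where 27.5% of 15733 genes were called higher and 29.7% lower, and the median was 0.49 beside -0.05 over all genes. The count of calls thus rests on whether 1 library is used, while most members were above 0 with and without it. The direction is relative to the scaling. The median of the members stayed above 0 with RLE factors (0.37), with TMM factors from other genes (0.37) and by library size alone (0.20), and on log2(TPM + 1) it was -0.01 with all libraries, where the median of all genes was -0.25, and 0.17 without stim replicate 3, where that of all genes was -0.28.

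**Figure D2:**
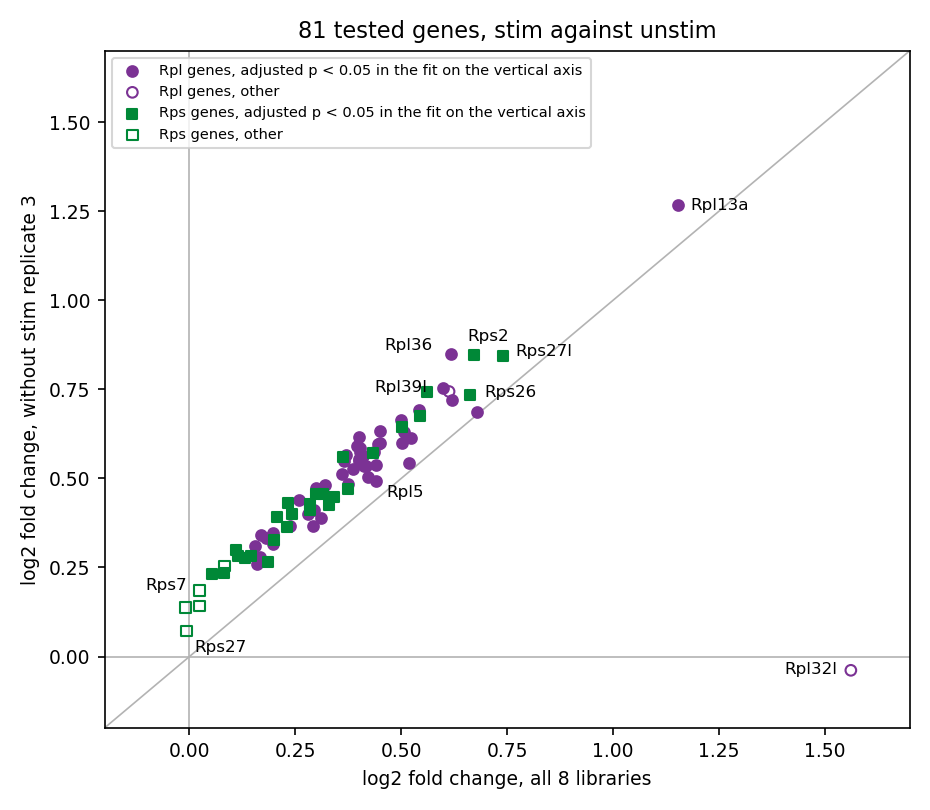
Log2 fold change of the 81 tested members, stim against unstim, with all 8 libraries (horizontal) and without stim replicate 3 (vertical); circles are Rpl genes, squares Rps genes, filled where the adjusted p without stim replicate 3 is below 0.05, and the diagonal marks equal values. Most members lie above the diagonal between 0 and 0.9, Rpl13a stands above the rest, and Rpl32l moves from 1.56 to -0.04.

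Large-subunit members had the larger changes. With all libraries, 15 of 49 large-subunit members were called higher with a median log2 fold change of 0.40, and 4 of 32 small-subunit members (12.5%, below the 16.2% of all genes) with a median of 0.24. Without stim replicate 3 these were 47 of 49 with a median of 0.54 and 27 of 32 with a median of 0.41 (27.5% of all genes called higher). Counts on Rpl genes divided by counts on Rps genes of the same library, a ratio that needs no scaling between libraries, were 1.21, 1.23, 1.22 and 1.24 in unstim replicates 1 to 4 and 1.35, 1.34, 1.33 and 1.32 in stim replicates 1 to 4. The groups did not overlap, and stim replicate 3, low in the total, lay among the other stimulated libraries in this ratio. The mean rose from 1.22 ± 0.0155 to 1.34 ± 0.0113 (SD, n = 4 each; no test was made, since it is a score over the members). Without Rpl13a the difference of the means was 0.11, as with it, and over members with under 25% of their 75-base stretches shared it was 0.176. In the Blimp-1 experiment, whose libraries were all stimulated for longer and form a separate table, the ratio was 1.35, 1.26 and 1.37 in WT and 1.39, 1.37 and 1.37 in KO.

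**Figure D3:**
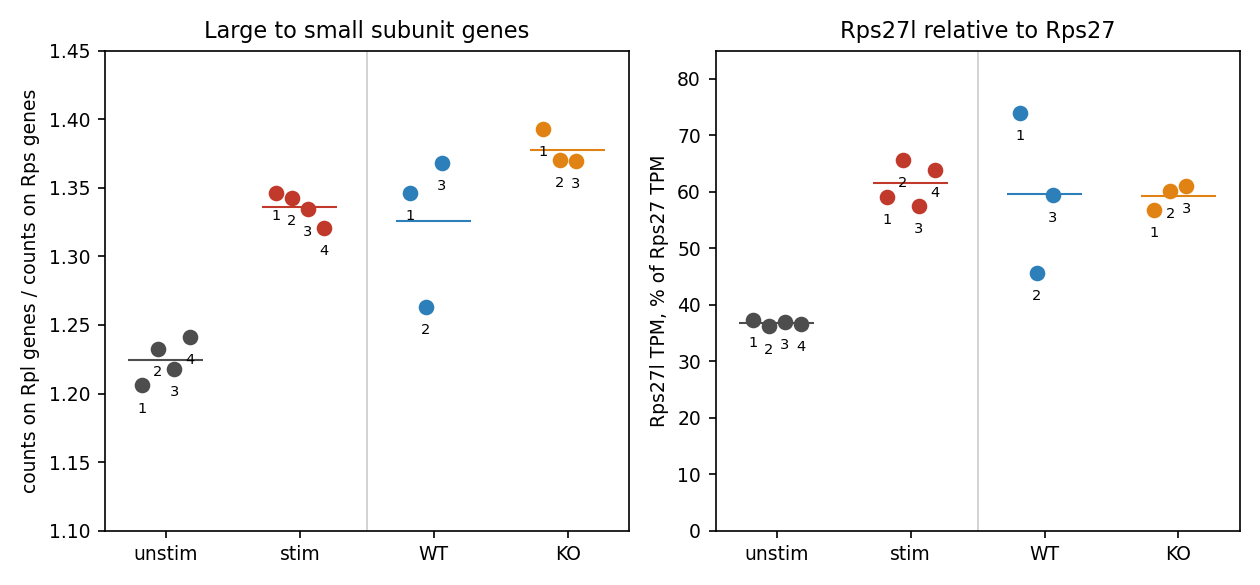
Ratios formed within each library, with replicate numbers under the points and group means as lines; left, counts on Rpl genes over counts on Rps genes (the axis does not start at 0), right, Rps27l TPM as a percent of Rps27 TPM. All 4 stimulated libraries lie above all 4 unstimulated libraries in both panels, from 1.32 to 1.35 against 1.21 to 1.24 and from 57.6% to 65.7% against 36.2% to 37.3%.

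The same view by gene shows which members changed their part of the ribosomal protein counts. As a share of the counts on members in the same library, 15 of 49 large-subunit and 5 of 32 small-subunit members were higher in every stimulated than in every unstimulated library, and 4 large-subunit and 14 small-subunit members were lower in every stimulated library. On this scale 9.14% of all genes tested were higher without overlap and 28.2% lower. Without stim replicate 3, 24 large-subunit and 7 small-subunit members were higher (10.1% of all genes), and 7 and 15 were lower (54.2%). In both settings a smaller part of the members than of all genes was lower. Shares of the member counts add up to the whole in each library, so some must fall when others rise. With all libraries the small-subunit members with a higher share were Rps2, Rps25, Rps26, Rps27a and Rps27l, and the large-subunit members with a lower share include Rpl19, Rpl30 and Rpl37a. The 14 small-subunit members with a lower share include Rps6, the substrate of S6 kinases, Rpsa, also known as the laminin receptor, and Rps19, the gene most often mutated in Diamond-Blackfan anaemia. The fitted log2 fold changes of these last 3 genes were above 0 (0.23, 0.14 and 0.11).

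Of single members, Rpl13a had the largest change past the threshold. Rpl13a is a large-subunit protein that can also leave the ribosome to silence inflammatory mRNAs in interferon-treated myeloid cells. Its CPM (the count divided by the library total scaled with edgeR's TMM factors, times 1e+06) were 42.9, 40.9, 43.9 and 45.2 in unstim replicates 1 to 4 and 97.1, 102, 72.4 and 112 in stim replicates 1 to 4. The groups did not overlap, stim replicate 3 being the lowest stimulated library. The log2 fold change was 1.15 ± 0.13 (SE, adjusted p = 0.000383, edgeR), or 2.22-fold, and 1.27 ± 0.06 without stim replicate 3, and over 17 alternatives the adjusted p ranged from 8.92e-58 to 0.00431. GENCODE places Rpl13a on chr7:45125558-45128761, minus strand (GRCm38), with 35.4% of its exon bases inside exons of Gm45713, Mir5121 or Snord33. Gm45713 had at most 0.032 CPM in any library. How reads inside exons of more than 1 gene were counted is not stated, so this level does not show what the overlap did to the counts of Rpl13a.

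Rps27l, a paralogue of Rps27 known as a p53 target, changed apart from its parent. Its values were 92.1, 78.5, 77.2 and 77.6 CPM in unstim replicates 1 to 4 and 137, 143, 105 and 159 CPM in stim replicates 1 to 4, so that every stimulated library was above every unstimulated one. The log2 fold change was 0.74 ± 0.13 (SE, adjusted p = 0.0031, edgeR). Rps27 itself was at 315, 278, 267 and 271 CPM in unstim and 296, 278, 234 and 318 CPM in stim, with overlapping groups and a log2 fold change of -0.01 ± 0.10 (adjusted p = 0.967, edgeR). Per length, Rps27l stood at 36.8% ± 0.498 of Rps27 in unstim and 61.5% ± 3.83 in stim (SD, n = 4 each). Only 8.07% of the 75-base stretches of Rps27l occur in other genes, against 42.4% for Rps27.

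Of the 12 p53 targets listed for comparison, of which Rps27l is not counted as one, 5 were called higher and 1 lower, where 16.2% of all genes were called higher and 16.1% lower, and without stim replicate 3 these were 8 and 1, where the shares were 27.5% and 29.7%. Cdkn1a, an inhibitor of cyclin-dependent kinases, changed by 1.42 and Mdm2, the ligase that degrades p53, by 0.90 on the log2 scale, and Trp53inp1 fell by 1.11.

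The other members among the 10 largest rises past the threshold were Rpl24, Rps26, Rpl41, Rpl35, Rps27a, Rpl7a, Rpl10 and Rpl23a. Rpl24, which helps bridge the subunits, was at 48.4, 38.5, 43.9 and 38.6 CPM in unstim and 63.0, 69.4, 66.9 and 72.0 CPM in stim, with no overlap and a log2 fold change of 0.68 ± 0.09 (adjusted p = 0.00104, edgeR). Other annotated genes contain 80.9% of its 75-base stretches, and 47.0% of its exon bases lie in Gm28037. That gene had 0 counts in every library, which again depends on how reads in overlapping exons were counted. Rps26, which contacts mRNA upstream of the start codon, was at 571, 517, 501 and 481 CPM in unstim and 799, 851, 692 and 932 CPM in stim, again with no overlap, and its log2 fold change was 0.66 ± 0.11 (adjusted p = 0.00219, edgeR). Rpl41, the smallest ribosomal protein, rose by 0.62 ± 0.12 on the log2 scale (adjusted p = 0.00637, edgeR). In the stimulated group its values of 655, 638, 501 and 755 CPM were above the unstimulated 451, 417, 405 and 388 CPM. The remaining 5 had log2 fold changes between 0.52 (Rpl10, Rpl23a) and 0.60 (Rpl35), with Rps27a, made as a fusion with ubiquitin, and Rpl7a at 0.54, and of these 5 the groups did not overlap for Rpl10 and Rpl23a. Across all members, 10 of 81 were higher in every stimulated library (17.0% of all genes tested), and 72 of 81 without stim replicate 3 (28.6%).

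**Figure D4:**
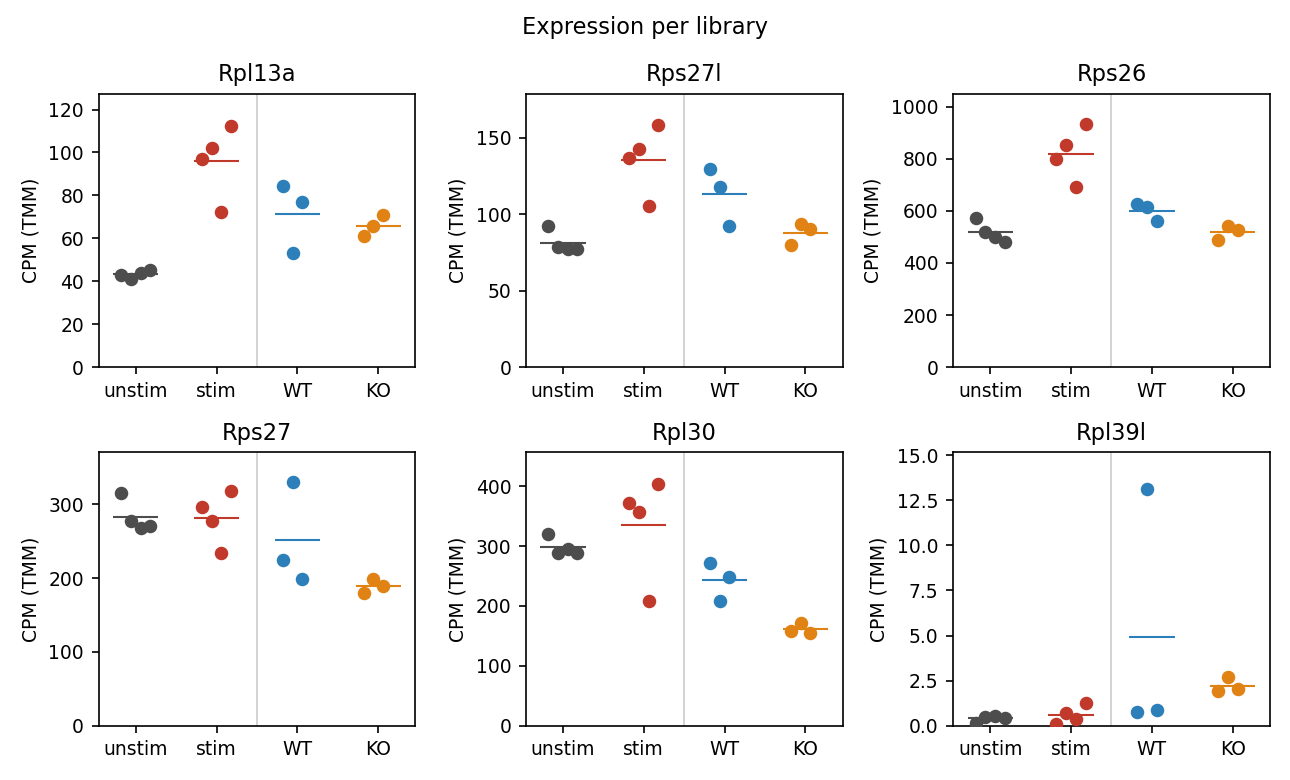
TMM-scaled CPM of 6 members in each library (points) with group means (lines); each experiment was scaled on its own. Rpl13a, Rps27l and Rps26 are higher in all stimulated libraries, Rps27 is not, Rpl30 is lower in all KO than in all WT libraries, and Rpl39l in WT replicate 2 (13.2 CPM) stands far above the other WT libraries.

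Of the stalk, Rplp0 was at 1900, 1645, 1748 and 1613 CPM in unstim and 2355, 2597, 1587 and 2889 CPM in stim, with stim replicate 3 below all the rest, and its log2 fold change was 0.45 ± 0.18 (adjusted p = 0.0931, edgeR) with all libraries and 0.60 ± 0.08 (adjusted p = 0.000147) without that library. The other stalk proteins, Rplp1 and Rplp2, had log2 fold changes of 0.17 and 0.30 with all libraries, below the threshold, and of 0.28 and 0.47 without stim replicate 3, past it. Rpl5 and Rpl11 bind the 5S rRNA together and can hold Mdm2 when ribosome assembly is disturbed. Rpl5 rose (log2 fold change 0.44 ± 0.09, adjusted p = 0.00711, edgeR), from 482 to 562 CPM in unstim to between 621 and 785 CPM in stim. For Rpl11 the log2 fold change was 0.26 ± 0.20 (adjusted p = 0.338), and 0.44 ± 0.07 (adjusted p = 0.000304) without stim replicate 3. Rpl22, an RNA-binding protein with a role in lymphocyte development, rose by 0.31 on the log2 scale (adjusted p = 0.0387, edgeR). Rpl38, known for its part in translating homeobox mRNAs, had 0.40, and Rps6, Rps19 and Rpsa had 0.23, 0.11 and 0.14, none past the threshold with all libraries and all 4 past it without stim replicate 3.

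Without stim replicate 3, 7 tested members did not pass the threshold. Among them were Rps27, Rps20 and Rps7, with log2 fold changes of 0.07, 0.14 and 0.19, and the low-level Rps4l, Rpl32l and Rpl39l, with 0.25, -0.04 and 0.74. The first 3 all belong to the small subunit, and their standard errors were 0.07 to 0.08. Rpl32l was at 0.556, 0.744, 0.467 and 0.599 CPM in unstim and 0.690, 0.486, 5.62 and 0.566 CPM in stim, with stim replicate 3 far above the other 7 libraries, and its log2 fold change with all libraries was 1.56 ± 0.84 (adjusted p = 0.184, edgeR).

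The tissue-restricted paralogues were at or near the limit of counting. Rpl10l, known from testis, had 0 counts in all 14 libraries, and the upper limit of 3 counts for such a gene equals 0.0310 to 0.731 CPM, depending on the library (counting error only). Rpl3l, known from heart and skeletal muscle, had 0 to 1 counts in unstim, 0 to 6 in stim, 0 to 5 in WT and 3 to 4 in KO, and no fold is given. Its parent Rpl3 was at 725 TPM in unstim. Rpl39l, also known from testis, had 5, 17, 13 and 13 counts in unstim and 3, 22, 4 and 35 in stim. Its groups overlapped (log2 fold change 0.61 ± 0.70, adjusted p = 0.519, edgeR), and per length it was at 0.384% ± 0.174 of Rpl39 in unstim. Rps4l reached at most 2.05% of Rps4x in unstim and 2.17% in stim, with overlapping groups.

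Members with and without the start-site run were set side by side, as a description with no test. The split rests on the start base given by RefSeq and is not a measure of a TOP tract. Rpl7a and Rps9 count as having no run, although their annotated start is a T inside a pyrimidine stretch. The group with the run holds the low-level pseudogene Rpl32l. With all libraries the 14 members that hold it had a median log2 fold change of 0.30, with 1 called higher, and the 45 tested members with a window and no such run had 0.40, with 15 called higher (16.2% of all genes). Without stim replicate 3 the medians were 0.44 and 0.54, with 12 of 14 and 43 of 45 called higher (27.5% of all genes). Rpl35, which holds an 11-base run, was among the largest rises, while Rps27, with 7 bases, was among the smallest.

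Other genes of the translation machinery were set beside the members, where 16.2% of all genes were called higher with all libraries and 27.5% without stim replicate 3. Of the 7 ribosomal protein genes or paralogues that the naming rule leaves out, 3 were called higher with all libraries and all 7 without stim replicate 3, with medians of 0.44 and 0.56. The first 3 were the paralogues Rpl7l1 (0.68 and 0.80), Rpl36al (0.79 and 0.81) and Rpl22l1 (0.44 and 0.47), and those past the threshold without stim replicate 3 but not with it include the scaffold Rack1 (0.43 and 0.56), Rps3a1 (0.21 and 0.32) and Fau (0.16 and 0.29). Of 16 translation factors and other genes known for TOP mRNAs, 8 were called higher and 0 lower (12 and 1 without stim replicate 3), led by Npm1, a nucleolar chaperone, at 1.66, and Eef1g, an elongation factor subunit, at 0.75. Of 77 mitochondrial ribosomal protein genes tested, 28 were called higher and 0 lower (63 and 1), with a median of 0.29 and the largest changes for Mrpl45 (1.44) and Mrpl32 (1.34). Of 29 ribosome biogenesis genes, 26 were called higher and 1 lower (28 and 1), with a median of 0.87 that was above that of the ribosomal proteins themselves. Myc, which drives the programme, had a log2 fold change of 1.65 and Rrp9, a component of the U3 particle that processes rRNA, of 1.36. Pseudogenes named after a ribosomal protein gene, which can collect reads of the members, had 15 of 99 called higher and 0 lower (46 and 1 of 102).

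In KO against WT, no member passed the threshold of the edgeR test with all 6 libraries, and most members had small values below 0 on the TMM scale, while by library size alone and on log2(TPM + 1) their median was above 0 (0.29 and 1.61, beside 0.45 and 1.28 over all genes). The members took 4.43%, 0.869% and 4.08% of the counts in WT replicates 1 to 3 and 3.77%, 4.06% and 3.81% in KO replicates 1 to 3. The groups overlapped through WT replicate 2. Without that library the means were 4.26% ± 0.25 (SD, n = 2) and 3.88% ± 0.155 (SD, n = 3), with both WT libraries above all KO libraries and the nearest pair at 4.08% and 4.06%. Outside the 7 rRNA-like loci WT replicate 2 stood at 3.74%, below the 3.79% to 4.08% of the KO libraries. The direction of the share thus changed with WT replicate 2, from 0.75 percentage points higher in KO to 0.38 lower. Outside the loci it was lower in KO both with that library, by 0.21 percentage points, and without it, by 0.39, and with it the groups overlapped. With all libraries, other denominators gave a share that was higher in KO, by 0.069 percentage points of protein-coding counts and by 1.09 points of TPM outside the loci, and without WT replicate 2 the groups overlapped on the TPM scale.

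By the test, 0 of 81 members were called higher and 0 lower with all libraries (edgeR), where 0.45% of 17335 genes were called higher and 0.306% lower. At an unadjusted p below 0.05 there were 5 members (Rpl30, Rpl39, Rps15a, Rps21 and Rps27l, all below 0), where 11.9% of all genes were. DESeq2 called 2 lower, Rpl30 and Rps15a, where it called 2.9% of the 18418 genes with an adjusted p lower and 2.96% higher. The median log2 fold change was -0.14 beside -0.02 over all genes tested, with 72 of 81 members below 0. Without WT replicate 2, 1 member was called higher and 3 lower, where 8.25% of 17968 genes were called higher and 5.72% lower. The median was then -0.20 beside 0.01, with 79 of 81 members below 0 and 40 at an unadjusted p below 0.05 (31.2% of all genes). DESeq2 then called 1 member higher and 20 lower, where it called 10.6% of 18296 genes higher and 8.91% lower. In every KO library 21 of 81 members were below every WT library (10.8% of all genes tested), and 51 of 81 without WT replicate 2 (24.8%). As a share of the counts on members, 4 large-subunit members were higher without overlap (21.3% of all genes), and 5 large-subunit and 4 small-subunit members lower (4.4%). Without WT replicate 2 there were 10 large-subunit and 3 small-subunit members higher (42.6%), and 8 and 6 lower (7.15%).

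**Figure D5:**
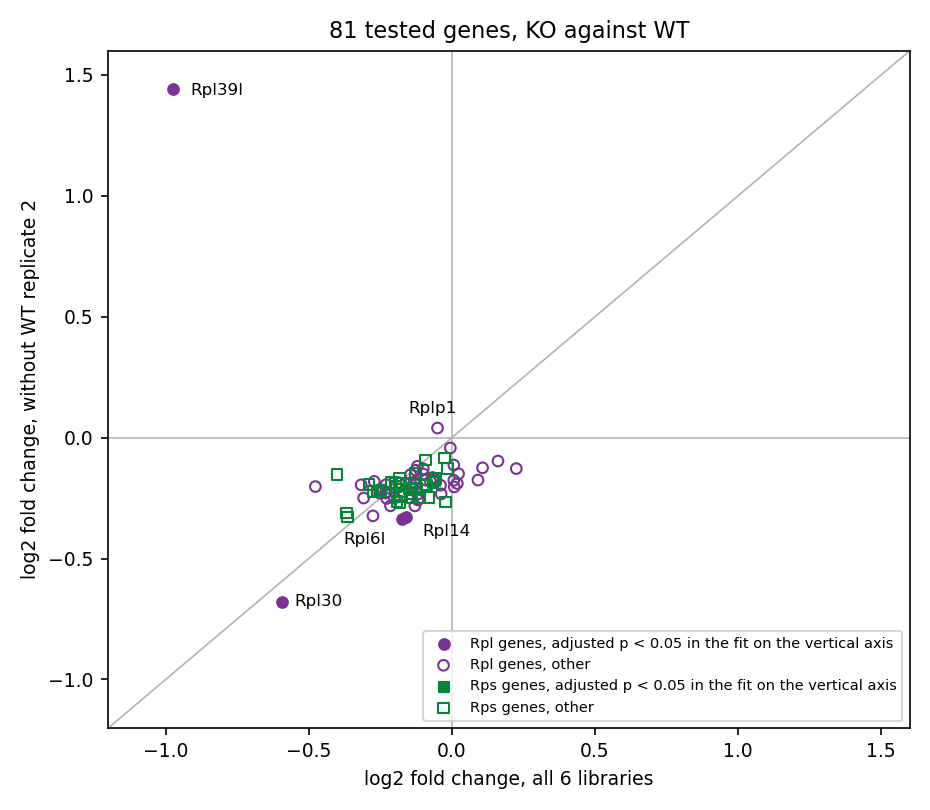
Log2 fold change of the 81 tested members, KO against WT, with all 6 libraries (horizontal) and without WT replicate 2 (vertical); circles are Rpl genes, squares Rps genes, filled where the adjusted p without WT replicate 2 is below 0.05, and the diagonal marks equal values. Most members lie between -0.4 and 0 on the vertical axis, Rpl30 is lowest on it at -0.68, and Rpl39l changes sign, from -0.97 to 1.44.

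Of the members that were lower in KO, Rpl30 had the largest change past the threshold without WT replicate 2. It is a large-subunit protein that in yeast limits the splicing of its own transcript. Its values were 272, 209 and 249 CPM in WT replicates 1 to 3 and 158, 172 and 154 CPM in KO replicates 1 to 3, with no overlap and WT replicate 2 again the lowest WT library. The log2 fold change was -0.59 ± 0.13 (adjusted p = 0.117, edgeR) with all libraries and -0.68 ± 0.07 (adjusted p = 0.00259) without WT replicate 2. Over 15 alternatives the adjusted p ranged from 6.33e-14 to 0.91. In the other experiment Rpl30 was at 288 to 321 CPM in unstim and at 208 to 403 CPM in stim. Rpl30 lies on chr15:34440505-34443640, minus strand (GRCm38). Of its 75-base stretches 65.3% occur in another annotated gene, mainly D730044K07Rik, and 24.8% of its exon bases lie in exons of D730044K07Rik or Gm24523.

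Rpl39l moved against the set. It had 65, 54 and 81 counts in WT replicates 1 to 3 and 157, 210 and 198 in KO, or 0.784, 13.2 and 0.856 CPM against 1.90, 2.71 and 2.05 CPM. WT replicate 2 had the fewest counts of the gene and the highest CPM of the 6 libraries. Without that library Rpl39l rose 2.72-fold (log2 fold change 1.44 ± 0.23, adjusted p = 0.0095, edgeR), and with it the fitted value was -0.97 ± 1.12 (adjusted p = 0.801). Over 15 alternatives the adjusted p ranged from 7.25e-06 to 0.989. Per length it reached 0.729% and 0.984% of Rpl39 in WT replicates 1 and 3 and 2.49% to 3.06% in KO. None of its 75-base stretches occurs in another annotated gene.

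The other members called by edgeR without WT replicate 2 were Rpl14 and Rpl6l, by smaller amounts. Rpl14, a large-subunit protein, was at 366, 226 and 327 CPM in WT and 253, 290 and 280 CPM in KO, and fell by 0.33 on the log2 scale without WT replicate 2 (SE 0.08, adjusted p = 0.0421, edgeR). Rpl6l, a processed pseudogene close to Rpl6, was at 34.7, 20.5 and 31.2 CPM in WT and 26.9, 26.8 and 23.8 CPM in KO, and fell by 0.34 (SE 0.09, adjusted p = 0.0441, edgeR). For both, WT replicate 2 was the lowest of all 6 libraries, and neither passed with it.

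Rps27l was at 130, 118 and 92.6 CPM in WT and 80.01, 93.6 and 90.6 CPM in KO, with overlapping groups (log2 fold change -0.36 ± 0.15, adjusted p = 0.394, edgeR). Per length it stood at 74.0%, 45.7% and 59.4% of Rps27 in WT and at 56.8% to 61.1% in KO. Rps4l had means of 13.9 ± 3.49 CPM in WT and 13.9 ± 5.33 CPM in KO (SD, n = 3 each), a difference within the spread between replicates. Rpl3, Rpl10, Rps27 and Rps4x had log2 fold changes of -0.18, -0.17, -0.15 and -0.25 without WT replicate 2, and Rpl13a, the leading gene of the stimulation, of -0.28 (adjusted p = 0.0531, edgeR), and none of these 5 passed the threshold in that fit. By DESeq2 without WT replicate 2, Rpl3 (adjusted p = 0.0378), Rps4x (0.0168) and Rpl13a (0.0167) passed it, and over 15 alternatives their largest adjusted p was 1, 1 and 0.996.

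The lists set beside the members had few calls in KO. With all libraries none of the translation factors, mitochondrial ribosomal proteins, ribosome biogenesis genes, p53 targets, other ribosomal proteins or named pseudogenes was called. At an unadjusted p below 0.05 these lists held 0, 10, 1, 1, 0 and 6 genes (edgeR, 11.9% of all genes), and DESeq2 called 1 translation factor (Pabpc1, the poly(A)-binding protein) and 1 named pseudogene (Rps15a-ps7) lower and no other gene of the lists. Without WT replicate 2, 3 of 16 translation factors, 10 of 78 mitochondrial ribosomal proteins and 6 of 29 biogenesis genes were called lower and none higher (edgeR, 5.72% and 8.25% of all genes), with medians of -0.24, -0.21 and -0.22 beside the -0.20 of the members and with 14, 48 and 18 genes at an unadjusted p below 0.05 (31.2% of all genes). Of 12 p53 targets 1 was called lower and 0 higher, of 136 named pseudogenes 2 lower and 9 higher, and of the 7 other ribosomal proteins 0 in either direction, with 3, 32 and 2 genes at an unadjusted p below 0.05. Epithelial or stromal markers summed to 36.6 to 133 TPM in WT and 213 to 278 TPM in KO. The sums overlapped for myeloid markers (4.91 to 325.5 TPM in WT and 89.8 to 280 in KO) and T cell markers (1.29 to 35.3 and 33.1 to 34.8). These WT ranges include WT replicate 2, where TPM were low (Rpl3 at 14.6, against 824 and 830 in WT replicates 1 and 3). The part of such other cells in these small shifts was not tested.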

How the data were processed

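RNA-seq of 14 libraries of sorted lung ILC2s was used. Per the labels and methods, cDNA was amplified by SMART-seq v4, reads were placed on mm10, and Subread gave gene counts. The authors deposited these raw counts, with TPM, in 1 table for each experiment. The submitters' processing notes name Bowtie2 and DESeq2 as well. The deposited TPM follow from the deposited counts and gene lengths. Strand and the treatment of reads with several matches are not given in the sources used here.

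Counts were fitted per experiment with edgeR 4.0.16 (R 4.3.3), with TMM factors, filterByExpr and the quasi-likelihood test. Tests were two-sided and adjusted by Benjamini-Hochberg over all genes tested, with a threshold of 0.05. Replicates are separate mice. CPM are counts divided by the TMM-scaled library size, times 1e+06. The fit was tested on simulated data. Shares, ratios and medians over the members were given no test.

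The members and lists were chosen with earlier results of these data known. Members were named if they were among the 10 largest rises or falls past the threshold, among the 5 highest or 5 lowest by TPM in unstim, or fixed by name (the paralogues with their parents, the stalk, Rpl5, Rpl11, Rpl13a, Rpl22, Rpl38, Rps6, Rps19, Rps26, Rps27a and Rpsa). Other genes named are ribosomal proteins outside the naming rule and, of each list, up to 4 with the largest changes past the threshold. Rpl14, Rpl30, Rpl6l, Rps7, Rps15a, Rps20, Rps21, Pabpc1 and Rps15a-ps7, and the members listed by their share of member counts, were named after their values were seen. Some genes that these rules select are not reported here by name. Alternatives were DESeq2 1.42.0, RLE factors, library size alone, TMM factors from other genes, no filter, a block for the replicate number, each library left out, and limma 3.58.1 on log2(TPM + 1) where the TPM averaged 1 or more. The limma and DESeq2 fits without stim replicate 3 or WT replicate 2 and the settings of the subunit ratio were added after seeing the data. Coordinates and shared stretches come from GENCODE (GRCm38) and start sites from RefSeq (GRCm38.p6).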

Additional observations from a re-analysis of the deposited data

Results flagged for a closer look

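Single libraries were compared with the others of their group in 76 groups of 4 libraries (the member shares, the subunit ratio and the named members, in unstim and in stim). In 5 groups the highest or lowest library lay apart by more than the critical value of Dixon's test, and chance alone marks about 1 in 20 groups. In unstim replicate 1, Rpl10 was at 619.6 CPM (the others at 546.9 to 557.2), Rpl11 at 500.2 CPM (440.5 to 450.3) and Rps27l at 92.1 CPM (77.2 to 78.5), all 3 on the high side. In stim replicate 3, Rpl32l was at 5.62 CPM (0.486 to 0.690) and Rpl6l at 20.7 CPM (44.6 to 49.5). Unstim replicate 1 had the highest member share of its group (4.08%), and stim replicate 3 the lowest of its group (3.06%) and 4.12% of its counts on rRNA-like loci. The part of these values in the single genes was not tested.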

How the results depend on the processing

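The number of members called higher in stim (19 with all libraries) was 33 by DESeq2 (40.2% of members beside 18.7% of all genes), 10 by library size alone (12.3% beside 11.7%), 6 with no filter (7.32% beside 5.92%) and 2 on log2(TPM + 1) (2.47% beside 6.80%). Without stim replicate 3 it was 75 by DESeq2 (91.5% of members beside 16.4% of all genes fitted, with or without an adjusted p). On log2(TPM + 1) without that library it was 48 (59.3% beside 15.5%). With 1 library left out it ranged from 8 (without unstim replicate 3, 9.88% beside 11.8%) to 74 (without stim replicate 3, 91.4% beside 27.5%). No member was called lower except on log2(TPM + 1) without stim replicate 3, where 3 were, Rps27 and Rps20 among them. In that fit 6563 of all 14237 genes were called lower. The median of the members was -0.011 on log2(TPM + 1). In KO, 1 member was called higher without WT replicate 2 by edgeR, by DESeq2 and on log2(TPM + 1), where 8.25%, 10.6% and 7.48% of all genes were. DESeq2 called 2 lower (2.9% of genes with an adjusted p) and, without WT replicate 2, 20 (8.91%). On log2(TPM + 1) without that library 3 were called lower, where 575 of all 14389 genes were. With 1 library left out, 0 to 1 were higher and 0 to 3 lower. The KO median was 1.61 on log2(TPM + 1) and 0.29 by library size alone. The difference in the subunit ratio was 0.176 in stim over members with under 25% of their stretches shared, and 0.0093 in KO over members with no exon overlap. The fits of DESeq2 and log2(TPM + 1) without a library, and the settings of the ratio, were chosen after seeing the data. The causes were not tested.

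Replicate numbers are shared between groups but name different mice, and the deviations of same-numbered libraries were not all positively correlated across genes (correlations of -0.123, 0.214, 0.312 and 0.166 in stim and -0.133, -0.158 and 0.143 in KO), so they were not treated as pairs. With the replicate block, 9 members were called higher in stim (11.1% beside 11.7% of all genes), and log2 fold changes changed sign for Rps7 in stim (-0.013) and for Rpl39l (0.20) and Rps6 (0.037) in KO.

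Signs of single genes were followed for part of the named genes only, and the lists below cover those, with log2 fold changes. Over all 81 tested members in stim, 2 were below 0 by edgeR with TMM factors, 13 by library size alone and 43 on log2(TPM + 1). Over all 81 in KO, 9 were above 0 by edgeR with TMM factors, 80 by library size alone and 81 on log2(TPM + 1). In stim by library size alone these were Rps15 (-0.035), Rps19 (-0.052), Rps4l (-0.089), Rps7 (-0.14), Rpsa (-0.021) and Fau (-0.00633). In stim on log2(TPM + 1) these were Rpl11 (-0.12), Rpl22 (-0.026), Rpl39 (-0.044), Rpl6l (-0.011), Rpl8 (-0.047), Rplp1 (-0.17), Rplp2 (-0.074), Rps15 (-0.23), Rps19 (-0.26), Rps4l (-0.31), Rps4x (-0.15), Rps6 (-0.13), Rps7 (-0.34), Rpsa (-0.21), Fau (-0.20) and Rps3a1 (-0.14). On that scale without stim replicate 3 they were Rpl32l (-0.27), Rplp1 (-0.020), Rps15 (-0.031), Rps19 (-0.025), Rps4l (-0.097), Rps4x (-0.042), Rps7 (-0.12), Rpsa (-0.024) and Fau (-0.012). RLE factors gave Rps20 0.00095 and Rps27 0.0071, and DESeq2 without stim replicate 3 gave Rpl32l -0.0035, Rps20 0.17 and Rps27 0.11. In KO by library size alone these were Rpl10 (0.35), Rpl13a (0.25), Rpl14 (0.21), Rpl39 (0.21), Rpl39l (0.57), Rpl6l (0.20), Rps15a (0.15), Rps27 (0.24), Rps27l (0.14), Rps4l (0.39), Rps4x (0.29) and Rps6 (0.29). In KO on log2(TPM + 1) they were Rpl10 (1.72), Rpl13a (1.55), Rpl14 (1.62), Rpl30 (1.145), Rpl39 (1.448), Rpl39l (1.55), Rpl6l (1.51), Rps15a (1.34), Rps27 (1.40), Rps27l (1.40), Rps4l (1.48), Rps4x (1.72) and Rps6 (1.80). Without WT replicate 2, Rpl3 was -0.12 and Rpl39l 1.28 on log2(TPM + 1), and -0.19 and 1.43 by DESeq2. Rps4l in KO was 0.0073 by DESeq2 and 0.016 with no filter, and Rps6 was 0.00051 with no filter.

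Among the same followed genes, ranges that crossed 0 with 1 library left out were, in stim, Rps7 -0.10 to 0.19, Rps20 -0.12 to 0.14, Rps27 -0.0730 to 0.10, Rps4l -0.23 to 0.25, Rpl39l -0.0069 to 0.98 and Rpl32l -0.039 to 1.88, and in KO, Rpl3 -0.18 to 0.14, Rpl10 -0.17 to 0.062, Rpl13a -0.28 to 0.017, Rps4x -0.25 to 0.083, Rps6 -0.27 to 0.17, Rps4l -0.35 to 0.21 and Rpl39l -1.53 to 1.44. Over all 81 tested members in KO, 26 were above 0 without WT replicate 1 and 2 without WT replicate 2. Depth limits Rpl3l and Rpl10l in both experiments, and Rpl32l and Rpl39l in the stimulation experiment, where they had few or no counts.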
